A study of Homo sapiens with 12 samples.

Results

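The miR-148 and miR-152 family was examined in differentiated Mono Mac 6 (MM6) cells with and without 5-lipoxygenase (5-LO). MM6 is a human monocytic leukaemia line, and 5-LO, encoded by ALOX5, is the enzyme that starts leukotriene synthesis. The members were every mature miRNA entry of miR-148a, miR-148b or miR-152 that both deposited tables listed, whichever arm it came from. There were 5 of 314 mature miRNAs listed in either table, namely miR-148a-3p, miR-148a-5p, miR-148b-3p, miR-148b-5p and an entry called miR-152, whose arm the tables did not name. Small RNA libraries were made from 4 groups of 3, which were wild type (WT), wild type with LPS, 5-LO knockout (KO, ALOX-5 -/-) and knockout with LPS. The cells of all 12 libraries, those of the controls included, had received calcitriol (50 nM) together with TGF-β (1 ng/mL) for 72 h according to the labels, and LPS, the endotoxin of Gram-negative bacteria, was given at 1 µg/mL for 6 h. The knockout cells were puromycin-selected single-cell clones made with a CRISPR/Cas9 lentivirus, while the methods describe no transduction of the wild-type cells, so the loss of 5-LO and the history of the clones cannot be told apart. The labels do not say which clone gave which library. ALOX5 mRNA is not measured by small RNA sequencing, so the genotype could not be checked here.

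An miRNA is cut from a hairpin transcript by Drosha and Dicer into a duplex of a 5p and a 3p arm, and one arm, the guide, is usually kept in an Argonaute protein while the other, the passenger, is mostly lost. Targets are chosen largely by the seed, bases 2 to 8 of the mature strand, so miRNAs that share a seed can share targets. In the miR-148 and miR-152 family the 3p arm is the usual guide. The family is known for repressing DNMT1, the maintenance DNA methyltransferase, and, in dendritic cells, CAMK2A, a kinase that promotes Toll-like receptor responses.

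The 3 guide sequences are shown because the shared seed, in capitals, is what defines the family, and miR-148b-5p is shown because it was the arm with the largest knockout to wild-type ratio among the members. All were taken from RefSeq (GRCh38.p14), which held 262 of the 314 listed names. It held 3 of the 5 members by exact name, and the sequence given for miR-152 is that of miR-152-3p.
miR-148a-3p: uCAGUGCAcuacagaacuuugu
miR-148b-3p: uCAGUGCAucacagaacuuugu
miR-152-3p: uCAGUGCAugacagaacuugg
miR-148b-5p: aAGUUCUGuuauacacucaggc
The seed CAGUGCA stood at bases 2 to 8 of 3 of 2370 human mature miRNAs searched, on the strand as printed (0.127%), and these were the 3 guides. Counted from 1 at the 5′ end, with the base of the first-named miRNA written first, miR-148a-3p and miR-148b-3p differed at 2 of 22 bases (C9U and U10C). Over the 21 bases of miR-152-3p, miR-148a-3p differed from it at 3 (C9U, U10G and U20G) and miR-148b-3p at 2 (C10G and U20G). Over the bases compared, the guides therefore differ only next to the seed and, for miR-152-3p, also near the 3′ end. How well reads were assigned between them was not tested. miR-148b-5p carries another seed, AGUUCUG. Its place in the hairpin is shown because both arms of miR-148b, in capitals with the 5p arm first, are compared below.
MIR148B: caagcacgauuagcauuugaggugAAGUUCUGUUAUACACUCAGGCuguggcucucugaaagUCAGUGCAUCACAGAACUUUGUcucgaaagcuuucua

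The 3 genes lie on different chromosomes. In GRCh37, the assembly of the hg19 build that the study used, MIR148A is at chr7:25989539-25989606 on the minus strand, inside a transcript of a long noncoding RNA (ENSG00000270933) and outside its exons. MIR148B is at chr12:54731000-54731098 on the plus strand, in an intron of COPZ1, which encodes a zeta subunit of the COPI coat of transport vesicles, and also inside a long noncoding RNA gene on the same strand (ENSG00000258344), outside its exons. Its 5p arm covers chr12:54731024-54731045 and its 3p arm chr12:54731062-54731083. MIR152 is at chr17:46114527-46114613 on the minus strand, in an intron of COPZ2, which encodes the other zeta subunit. COPZ1 and COPZ2 run in the direction of the miRNA they hold, and none of the 3 hairpins overlapped an annotated exon of another gene.

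The deposited tables held 1 normalised read count per group, the authors' mean over 3 libraries, and no spread between libraries. The mean of a weakly expressed entry is a sum of whole reads divided by the size factors of the libraries, and the size factors recovered from such steps ranged from 0.665 to 1.72. With them, all means of up to 10 gave 1 set of whole reads per library. The recovered libraries carry no replicate number and are named here as the deepest, middle or shallowest of their group. For larger means the intervals given are 95% counting intervals, which cover counting error only and not the spread between cultures, and no test between groups was made for the guides from these means. Library reads of exactly 1 were rare (41 values, against 346 of exactly 2, over mature means of up to 10), so a library recovered at 0 may hold a single read. The tables without and with LPS had been normalised separately, and LPS ratios are therefore given relative to the median of the 61 mature miRNAs with a mean of at least 50 in all 4 groups. The myeloid miRNAs miR-223-3p, miR-142-3p and miR-142-5p were present in all groups at 58.0 or more, and of 13 markers of other cell types only miR-9-5p and miR-200c-3p (at most 1.19) were listed. miR-9-5p, a neuronal marker, was at 16.2 in WT, 42.3 in KO, 19.7 in WT with LPS and 21.2 in KO with LPS, and its part in the results was not tested.

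miR-148a-3p was the main member in all 4 groups, and in the values as deposited it was at nearly the same level in the knockout as in the wild type, though below the median miRNA's change. Its normalised read count was 356 (336 to 378) in WT and 362 (341 to 385) in KO, and with LPS 313 (294 to 334) in WT and 302 (283 to 323) in KO, each the mean of 3 libraries. This placed it at rank 28, 31, 30 and 31 among the mature miRNAs in the same order of groups. The log2 ratio of KO to WT was 0.02 (−0.10 to 0.15) without LPS and −0.05 (−0.19 to 0.08) with LPS, so that both intervals include 0. The median mature miRNA with a mean of at least 50 was itself higher in the knockout, by 0.23 on the log2 scale without LPS and 0.25 with LPS. Relative to that median, miR-148a-3p was at −0.21 (−0.33 to −0.08) and −0.30 (−0.44 to −0.17).

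miR-148b-3p, the guide with the same seed from the COPZ1 intron, was lower in the knockout in both tables. It stood at 131 (119 to 144) in WT and 109 (97.6 to 122) in KO, and with LPS at 112 (100.2 to 124) in WT and 78.9 (69.2 to 90.0) in KO. The log2 ratio of KO to WT was −0.26 (−0.47 to −0.05) without LPS, or 0.835-fold, and −0.50 (−0.74 to −0.25) with LPS, or 0.707-fold, and both intervals lie below 0. Relative to the median miRNA the ratios were −0.49 and −0.75. The ratio of miR-148a-3p to miR-148b-3p, which does not depend on the scaling of a group, was 2.73 in WT and 3.32 in KO, and with LPS 2.81 and 3.83. It was higher in the knockout by 0.28 (0.04 to 0.53) on the log2 scale without LPS and by 0.45 (0.17 to 0.73) with LPS. These intervals hold no spread between cultures, so whether the difference exceeds that spread cannot be told from the means.

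miR-152, the member from the COPZ2 intron, was at like levels in both genotypes without LPS and at lower levels in both with LPS. Its normalised read count was 36.5 (30.3 to 43.9) in WT and 38.8 (32.2 to 46.8) in KO, and with LPS 21.8 (17.1 to 27.9) in WT and 17.2 (13.1 to 22.6) in KO. The last value rested on 55 reads, of which 34 came from the deepest, 8 from the middle and 13 from the shallowest library, a recovery that is less certain than those of means up to 10. The KO to WT log2 ratio was 0.09 (−0.29 to 0.47) without LPS and −0.34 (−0.87 to 0.18) with LPS. Relative to the median miRNA these values became −0.14 and −0.59, and the interval of the second (−1.12 to −0.07) no longer included 0. That second value was −1.02, −0.30 and −0.54 without the deepest, middle and shallowest KO library with LPS, in that order.

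**Figure D1:**
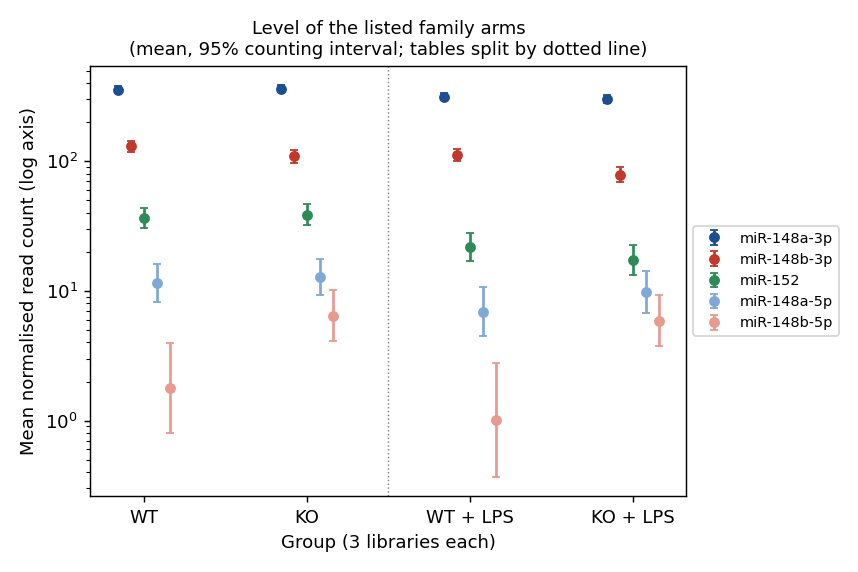
Mean normalised read count of each family arm (log axis) in the 4 groups of 3 libraries, with bars for the 95% counting interval and a dotted line between the 2 tables. miR-148a-3p lies highest in each group, between 302 and 362, and miR-148b-5p lowest, at 1.79 and 1.01 in the wild type against 6.45 and 5.90 in the knockout.

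In every group the order of levels was miR-148a-3p, miR-148b-3p, miR-152, miR-148a-5p and miR-148b-5p. The counting intervals of neighbours in that order did not overlap, except those of miR-152 and miR-148a-5p and those of both 5p arms in KO with LPS, and those of both 5p arms in KO without LPS. The 3 guides together came to 523 in WT, 510 in KO, 447 in WT with LPS and 398 in KO with LPS, which was 0.511%, 0.450%, 0.479% and 0.361% of the summed mature miRNA means. The entries miR-3607-3p and miR-3607-5p took a large part of that sum, and without them the same shares were 0.903%, 0.701%, 0.826% and 0.587%. miR-148a-3p made up 68.1% of the guides in WT and 71.0% in KO, and with LPS 70.1% and 75.9%.

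miR-148b-5p, the passenger arm of miR-148b, was the member with the largest knockout to wild-type ratio, at very low read numbers. In WT the reads were 3, 3 and 0 in the deepest, middle and shallowest library, and in KO 9, 8 and 3. As normalised counts these were 0 to 2.95 (mean 1.79 ± 1.57, SD, n = 3) in WT and 4.14 to 8.47 (6.45 ± 2.18, SD, n = 3) in KO. All 3 KO libraries thus lay above all 3 WT libraries (exact permutation test, two-sided, p = 0.1, the smallest p that 3 against 3 allows), also with the KO values scaled to the median miRNA (lowest KO library 3.53). With LPS the reads were 2, 2 and 0 in WT and 15, 0 and 5 in KO, in the same order of libraries. The normalised counts ran from 0 to 1.87 (1.01 ± 0.942, SD, n = 3) in WT and from 0 to 11.5 (5.90 ± 5.77, SD, n = 3) in KO, so that the groups overlapped (exact permutation test, two-sided, p = 0.4). The 3 libraries with no read allow, by a limit of 3 counts, up to 3.40 in WT, 4.51 in WT with LPS and 3.59 in KO with LPS.

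The mean of miR-148b-5p was 3.61-fold higher in KO without LPS (log2 1.85, 0.52 to 3.18) and 5.84-fold higher with LPS (log2 2.55, 0.96 to 4.14), from 6 and 20 reads and from 4 and 20 reads in all. The 15 reads of a single KO library carry much of the ratio with LPS, which was 1.61 on the log2 scale without that library and 3.13 without the KO library at 0. It was 3.34 without the middle WT library and 1.96 without the shallowest. Without LPS, leaving out the shallowest WT library, which had no read, gave 1.27, and leaving out any other library gave 1.61 to 2.42.

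miR-148a-5p, the passenger arm of miR-148a, was the more abundant passenger and showed a smaller difference. In WT its reads were 8, 17 and 10 from the deepest to the shallowest library, and in KO 15, 19 and 5. Both means lie above 10, where recovery is less certain, since 98.5% of WT and 91.7% of KO means from 10 to 20 had 1 set of whole reads. The normalised counts ran from 6.40 to 16.7 (11.5 ± 5.17, SD, n = 3) in WT and from 6.90 to 20.1 (12.7 ± 6.73, SD, n = 3) in KO, and the groups overlapped (exact permutation test, two-sided, p = 0.8). With LPS there were 10, 8 and 5 reads in WT and 13, 9 and 7 in KO. The normalised counts were then 5.82 to 7.51 (6.93 ± 0.966, SD, n = 3) in WT and 8.62 to 10.8 (9.80 ± 1.09, SD, n = 3) in KO, without overlap (exact permutation test, two-sided, p = 0.1, again the smallest possible). The KO to WT log2 ratio was 0.15 (−0.52 to 0.82) without LPS and 0.50 (−0.33 to 1.33) with LPS, the latter being 0.25 (−0.58 to 1.08) relative to the median miRNA. With the KO values so scaled, the lowest KO library with LPS was at 7.25, below the highest WT library at 7.51, and the groups overlapped. Without LPS its direction rested on single libraries, since it was −0.14 without the deepest WT library and −0.34 without the middle KO library, and relative to the median miRNA it was −0.08. These 4 tests were the only ones made between libraries, and they concern the spread between these libraries, which the labels do not tie to separate cultures, although the study describes its sequencing as representative of independent experiments.

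**Figure D2:**
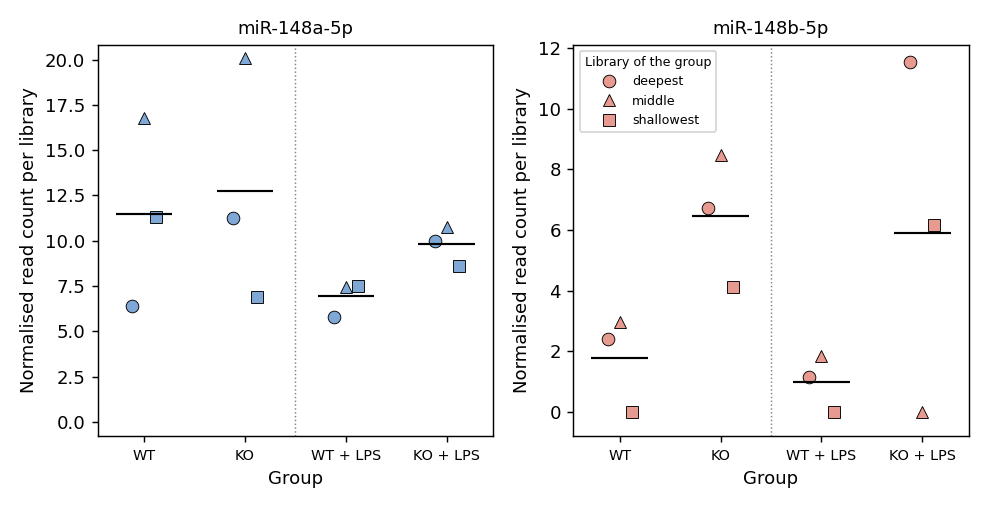
Normalised read count in each library for miR-148a-5p (left) and miR-148b-5p (right), with a symbol for the deepest, middle or shallowest library of a group, a horizontal bar for the mean of 3 and a dotted line between the tables. For miR-148b-5p without LPS the KO libraries (4.14 to 8.47) lie above the WT libraries (0 to 2.95), while with LPS 1 KO library lies at 0 and another at 11.5.

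Non-overlap of this kind was not confined to the family. Of the 186 mature miRNAs whose reads could be recovered in both genotypes without LPS, 10 (5.38%) had all KO libraries above all WT libraries, miR-148b-5p being one of them. In the values as deposited with LPS these were 3 of 154 (1.95%), miR-148a-5p, miR-31-5p and miR-625-3p. In the opposite direction, 6 of 186 (3.23%) had all KO libraries below all WT libraries without LPS, and 3 of 154 (1.95%) with LPS, miR-28-5p, miR-374a-3p and miR-99b-3p. No member was among these, and the non-members were named after their values were seen.

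The arm ratio of miR-148b was higher in the knockout means of both tables, beyond counting error, and the interval of that of miR-148a included 0. The 5p arm of miR-148b amounted to 1.37% of its 3p arm in WT (0.607% to 3.07%) and 5.91% in KO (3.72% to 9.39%). With LPS it was 0.905% in WT (0.329% to 2.49%) and 7.47% in KO (4.68% to 11.9%). The ratio was thus higher in the knockout by 2.11 (0.77 to 3.46) on the log2 scale without LPS and by 3.05 (1.44 to 4.65) with LPS. The more abundant 3p arm was lower and the 5p arm higher in the knockout, and both entered the ratio. With LPS the ratio carries the uneven reads of the 5p arm, as 1 KO library had none of its reads and another had 15, and the 5p arm overlapped between the genotypes. A pseudocount of 10 reduced the changes to 0.72 and 0.98. For miR-148a the 5p arm was 3.23% of the 3p arm in WT, 3.52% in KO, 2.21% in WT with LPS and 3.24% in KO with LPS, and the change between genotypes was 0.13 (−0.55 to 0.81) and 0.55 (−0.29 to 1.39). Between the passengers, miR-148b-5p was at 15.5% of miR-148a-5p in WT and 50.6% in KO, and with LPS at 14.6% and 60.2%.

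Among the 40 miRNAs with both arms above 0 in all 4 groups, the genotype change of the miR-148b arm ratio was the third highest without LPS and the highest with LPS. These ranks take the size of the change alone, and the places next to miR-148b also went to arms of few reads. The lowest group mean of an arm was 1.01 for miR-148b, against 0.499 and 1.25 for those ranked above it without LPS. For the next highest with LPS it was 0.513. The next highest with LPS was 2.93, close to the 3.05 of miR-148b, whose 5p arm had 15 of its 20 KO reads in 1 library. The arm ratio without that library could not be formed, as the 3p reads were not recovered, but the log2 KO to WT ratio of the 5p arm was 1.61 instead of 2.55 without it, so the first rank may rest on that library. Over the 40, the log2 change ran from −0.93 to 2.19 without LPS, with a median of 0.16, and from −2.23 to 3.05 with LPS, with a median of 0.07. The counting interval lay above 0 for 5 of 40 without LPS and 6 of 40 with LPS, and below 0 for 1 of 40 in each table. miR-148a ranked 22 and 13 in the same lists. For miR-152 no such ratio could be formed, as a single arm was listed.

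**Figure D3:**
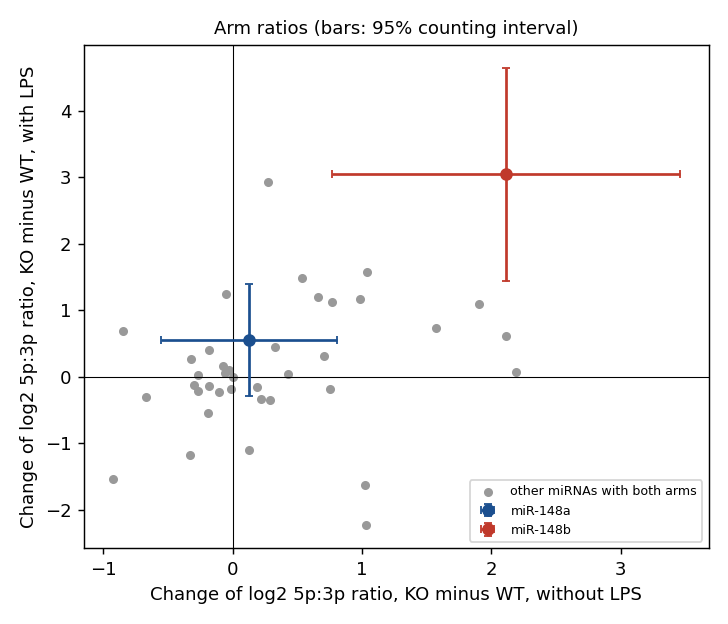
Genotype change of the log2 5p to 3p ratio, KO minus WT, without LPS (horizontal axis) and with LPS (vertical axis) for the 40 miRNAs with both arms in all groups, with 95% counting intervals on miR-148a and miR-148b. miR-148b lies at 2.11 and 3.05, apart from most of the grey points, and the bars of miR-148a cross 0 on both axes.

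Whether the guides passed a 1.5-fold difference between the genotypes depended on the scale. In the values as deposited without LPS, 23 of 106 mature miRNAs with a mean of at least 10 in both genotypes were at least 1.5-fold higher in KO (21.7%) and 4 were at least 1.5-fold lower (3.77%). The 4 members that passed this minimum, the guides and miR-148a-5p, were in neither count. With LPS, 18 of 103 were higher (17.5%) and 4 lower (3.88%), and none of the 3 guides, the members that passed, was among them. With the median miRNA set to 0, 8 of 106 were higher (7.55%) and 9 lower (8.49%) without LPS, again with no member among them. With LPS, 8 of 103 were then higher (7.77%) and 15 lower (14.6%), and 2 of the 3 guides, miR-148b-3p and miR-152, were among the lower. The log2 ratio of miR-152 on that scale, −0.59, lay just past the 1.5-fold bound, and was −1.02 without the deepest KO library, −0.30 without the middle and −0.54 without the shallowest, the values without the middle and the shallowest being inside it. miR-148b-5p passed in neither table because its means were under 10. In the values as deposited the lower entries were let-7e-5p and miR-125a-5p in both tables, miR-15b-5p and miR-484 without LPS, and miR-146a-3p and miR-454-3p with LPS, all but the last named after their values were seen. The difference between the genotype ratio with LPS and that without had a counting interval that included 0 for each of the 5 members. Examples are miR-148b-3p, at −0.24 (−0.56 to 0.09) on the log2 scale, and miR-152, at −0.43 (−1.08 to 0.22).

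**Figure D4:**
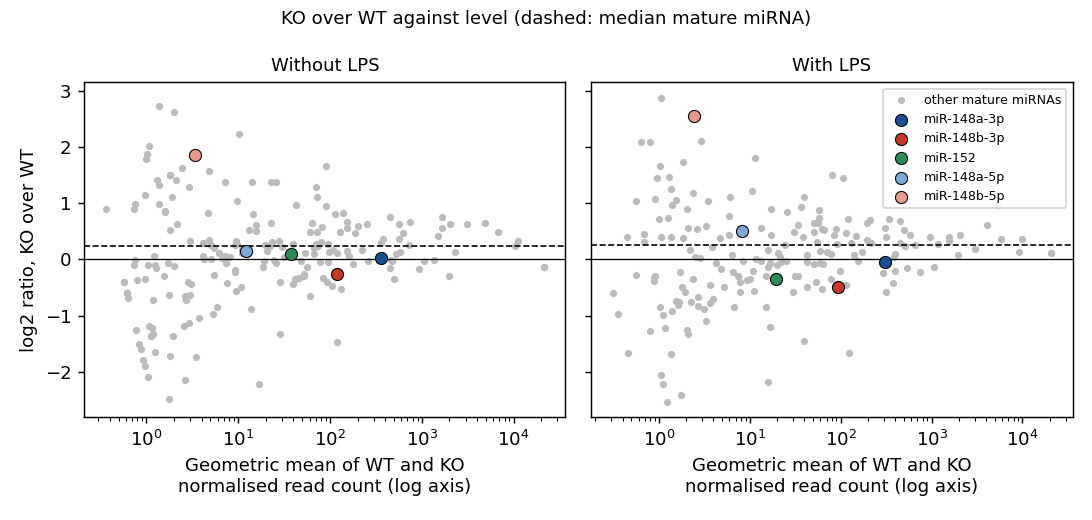
log2 ratio of KO to WT against the geometric mean of both groups (log axis) for every mature miRNA above 0 in both, without LPS (left) and with LPS (right), with the 5 members in colour and a dashed line at the median miRNA (0.23 and 0.25). miR-148b-3p lies below 0 in both panels at −0.26 and −0.50, and miR-148b-5p lies at 1.85 and 2.55 in a range of low counts where the grey points spread widely.

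Relative to the median miRNA, miR-152 was the member whose ratio of LPS to no LPS had a counting interval that left out 0, in both genotypes. Its log2 ratio was −0.48 (−0.92 to −0.04) in WT and −0.91 (−1.38 to −0.43) in KO. Leaving out each KO library with LPS in turn gave −1.34 to −0.62, the latter without the middle library. miR-148b-3p was at 0.03 (−0.18 to 0.24) in WT and −0.21 (−0.46 to 0.04) in KO, but with equal sums of mature miRNAs the latter was −0.43 (−0.68 to −0.18) and left out 0. miR-148a-3p was at 0.07 (−0.05 to 0.20) in WT, and in KO its value is 0 by construction, because it was itself the median miRNA there (−0.22, −0.35 to −0.09, with equal sums of mature miRNAs). The passengers had intervals that included 0 in both genotypes, with miR-148a-5p at −0.47 and −0.12 and miR-148b-5p at −0.56 and 0.13. The ratio of miR-148a-3p to miR-152 was 9.76 in WT and 14.3 with LPS, and 9.34 in KO and 17.5 with LPS. On the log2 scale this ratio was higher with LPS by 0.56 (0.10 to 1.01) in WT and 0.91 (0.42 to 1.40) in KO. Both miRNAs of the ratio were counted in the same libraries, and the ratio does not depend on how each table was scaled.

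By the 1.5-fold rule, again relative to the median, 8 of 104 mature miRNAs were higher with LPS in WT (7.69%) and 1 was lower (0.962%), miR-101-3p, named after its value was seen. In KO, 10 of 103 were higher (9.71%) and 6 were lower (5.83%), and miR-152 was the member among the latter. The 3 guides were the members with a mean of at least 10 in these groups, and apart from miR-152 in KO none passed the rule.

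Over the 4 groups, the range of miR-148a-3p was narrow and depended on the scale. With the LPS tables aligned at the median miRNA and the genotypes left as deposited, its range was 0.07 on the log2 scale, the smallest of the 100 mature miRNAs with a mean of at least 10 in all groups, against a median range of 0.57. On that scale miR-148b-3p (0.50) ranked 42 and miR-152 (0.91) ranked 83 from the smallest. With the median miRNA of all 4 groups set to 0, so that the genotypes were aligned too, the ranges were 0.25 for miR-148a-3p at rank 12, 0.72 for miR-148b-3p at rank 71 and 1.08 for miR-152 at rank 85, against a median of 0.54. Part of the first rank follows from the scale, since miR-148a-3p was the median miRNA in KO and its LPS ratio there is 0.

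**Figure D5:**
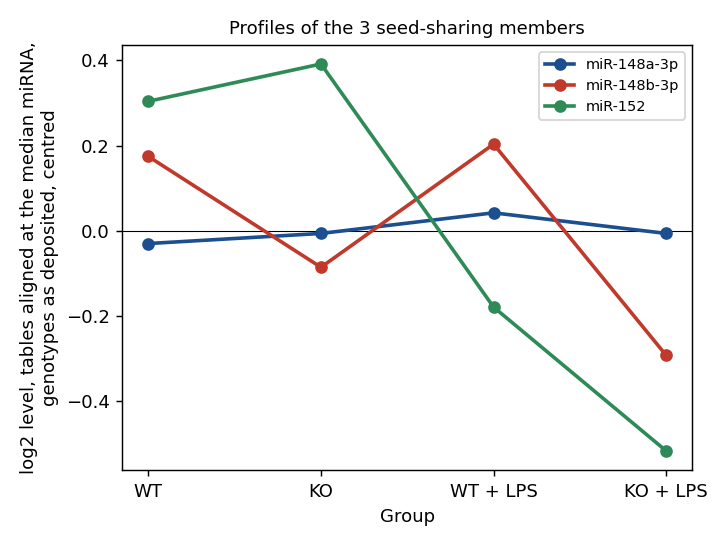
log2 level with the tables aligned at the median miRNA and the genotypes left as deposited, centred on the mean of the 4 groups, for the 3 members that share a seed. The line of miR-148a-3p spans 0.07, that of miR-148b-3p 0.50 with its lowest point in KO with LPS, and that of miR-152 0.91 with both LPS groups below both groups without LPS.

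The guides did not have one pattern in common, and the 5p arms were not compared. Likeness was measured over the 4 groups as the root mean square difference of the centred log2 levels, where 0 means the same pattern, with 99 other miRNAs compared. For miR-148a-3p the nearest were miR-301a-3p (0.027), miR-361-5p (0.040), miR-92b-3p (0.049), miR-181b-5p (0.053) and miR-664b-5p (0.072), while miR-148b-3p ranked 38 and miR-152 ranked 81. For miR-148b-3p they were miR-143-3p (0.049), miR-196b-5p (0.054), miR-199a-3p (0.084), miR-7-5p (0.085) and miR-664a-3p (0.096), with miR-148a-3p at rank 21 and miR-152 at rank 46. For miR-152 the nearest miRNA was at 0.187, with miR-148b-3p at rank 21 and miR-148a-3p at rank 34. These distances rest on 4 means each and carry no error.

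A related seed occurs in the 3p arms of miR-130, miR-301 and miR-454, whose bases 2 to 7 hold the last 6 letters of the family seed, AGUGCA, 1 base nearer to the 5′ end. In RefSeq, 6 of 2370 mature miRNAs held these letters at bases 2 to 7 (0.253%) on the strand as printed. miR-301b was listed without an arm and its sequence is not shown. Those listed under their exact RefSeq name are shown for this offset, with bases 2 to 8 in capitals.
miR-301a-3p: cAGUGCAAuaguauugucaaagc
miR-454-3p: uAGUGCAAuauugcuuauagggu
miR-130b-3p: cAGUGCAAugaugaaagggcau
miR-301a-3p, the most abundant of this list and the miRNA nearest in pattern to miR-148a-3p, was at 49.2 in WT, 48.0 in KO, 43.5 in WT with LPS and 41.9 in KO with LPS. miR-454-3p was at 25.0, 24.7, 25.1 and 10.9, and its KO to WT log2 ratio was −0.02 (−0.48 to 0.45) without LPS and −1.20 (−1.80 to −0.61) with LPS. miR-130b-3p (at most 3.30) and miR-301b (at most 4.33) rested on few reads, and of their KO to WT intervals only that of miR-130b-3p without LPS left out 0 (−1.73, −3.38 to −0.07). The same 6 letters thus stood in arms at very different levels and with different ratios.

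The precursor entries added little to the mature arms. mir-148a equalled the sum of its arms in each group to within 0.001, as did mir-148b and mir-152 in the groups other than KO with LPS. In KO with LPS, mir-148b was 0.82 below its arms, the step of 2 reads in the shallowest library, and mir-152 was 0.51 above the listed arm, the step of 2 reads in the deepest library.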

How the data were processed

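Small RNA libraries were prepared from total RNA with a Lexogen kit, pooled, size selected for mature and precursor miRNAs, and sequenced as single reads. The authors trimmed adapters and annotated the reads on hg19 with omiRas. The deposited signal values, used here, are normalised read counts given as 1 mean per group by the authors, in 2 tables normalised separately. Further columns hold the authors' fold change, p-value and false discovery rate of knockout against wild type, and were not used. Depth per library is not given in the sources used here.

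Size factors were recovered from the steps of means up to 10 (whole reads for 100% of them), assuming division of whole reads by 1 factor per library. Rounding allowed for 6 significant digits. Counting intervals (95%) treat reads as Poisson counts, and PCR copies were not separable. Recovery and interval coverage were tested on simulated Poisson reads. The coverage runs kept single reads and used means above that of miR-148b-5p in WT with LPS, so they do not cover that setting. Scripts ran in Python 3.11.15 (scipy 1.17.1 for tests, numpy 2.4.6 and pandas 2.3.3 for tables, matplotlib 3.10.9 for plots). Gene positions come from GENCODE 44 lifted to GRCh37. Named miRNAs were the members, their precursors, the offset-seed list, the 5 nearest patterns to miR-148a-3p and to miR-148b-3p and the cell type markers. Entries of short counts and miR-3607, which affects a share, were also named, after their values were seen. Arm ratios of other miRNAs were summarised without names. The members and lists were chosen with earlier results of these data known. Alternatives were other scalings, pseudocounts, minimum means and left-out libraries. Tests between recovered libraries were added after the values were seen. The methods text gives a longer differentiation than the labels, which were followed.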

Additional observations from a re-analysis of the deposited data

How the results depend on the processing

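Of the alternatives tried over 45 results, 126 stayed within the counting error or within 1.5 times a count, and 37 moved. With the median mature miRNA set to 0, the KO to WT log2 ratio became −0.21 without and −0.30 with LPS for miR-148a-3p, and −0.49 and −0.75 for miR-148b-3p. For miR-148a-3p, equal sums of mature miRNAs gave −0.12 and −0.30, and equal sums of all noncoding RNAs −0.15 without LPS. With the values as deposited, LPS to no LPS was −0.19 in WT and −0.26 in KO for miR-148a-3p and −0.23 and −0.47 for miR-148b-3p, and equal mature sums gave −0.22 for miR-148a-3p in KO. A pseudocount of 10 reduced the miR-148b-5p ratio to 0.48 and 0.53, and the change of the miR-148b arm ratio to 0.72 and 0.98, which exceeds every mean of that arm. Without LPS, the 23 miRNAs higher in KO became 15 with a minimum mean of 50, 51 with none, 12 with equal mature sums and 8 with the median at 0, and the 4 lower ones 1, 38, 7 and 9. With LPS, the 18 higher became 8, 42, 8 and 8, and the 4 lower 1, 33, 14 and 15. The members among the lower with LPS went from 0 to 2 with the median at 0, and aligning the genotypes raised the range of miR-148a-3p from 0.07 to 0.25. The lowest KO library of miR-148a-5p with LPS went from 8.62 to 7.25, all tried after the values were seen. Leaving out 1 library at a time gave 1.27 to 2.42 without LPS and 1.61 to 3.34 with LPS for miR-148b-5p, and −0.34 to 0.52 and 0.39 to 0.58 for miR-148a-5p. For miR-152, leaving out each KO library with LPS, also tried after the values were seen, gave −0.77 to −0.05 for KO to WT and −1.34 to −0.62 for LPS to no LPS.

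No paired analysis was possible because the tables hold group means and the recovered libraries carry no replicate number. Leaving out libraries was not run for the other guide values or for arm ratios, as reads of means above 20 were not recovered. The limits are the few reads of the 5p arms (4 to 39 in a group), the absence of replicate spread for the guides, and tables normalised separately.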
